A study of Mus musculus with 3 samples.

Results

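The 10 genes described here are the mucins Muc5ac, Muc5b, Muc1, Muc4, Muc16 and Muc20 and the goblet cell genes Spdef, Foxa3, Agr2 and Tff2. They were found by exact match of the gene symbol in the deposited feature list, 10 of 33696 features, with 1 identifier for each symbol. The data were single-cell RNA-seq counts of tdTomato-sorted cells from mouse larynx, in 3 libraries that all belong to 1 condition. Each library was a pool of 10 larynges, 5 from males and 5 from females. The animals carried Lrig1CreERT2/+, a tamoxifen-inducible Cre driven from the Lrig1 locus, together with ROSA26CAG-LSL-tdTomato/+, and were collected 1 day after Cre activation by tamoxifen given on consecutive days. Their age was not given in the sources used here. WT and ROSA26CAG-LSL-tdTomato/+ larynges only set the sorting gates and have no library. The comparisons are therefore between classes of cells within the same 3 pools, the library is the replicate (n = 3), and the sorted population holds descendants of cells with an active Lrig1 locus rather than the whole larynx.

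Mucus gels of the airway are built from the secreted mucins Muc5ac and Muc5b, very large disulfide-linked glycoproteins stored in granules. Muc1, Muc4, Muc16 and Muc20 are membrane mucins, which stay anchored at the apical surface and form a brush-like layer on it. Spdef, an ETS factor, and Foxa3, a forkhead factor, drive goblet cell differentiation in the airway, Agr2 is a disulfide isomerase of the endoplasmic reticulum needed to fold mucins, and Tff2 is a trefoil peptide secreted together with mucins.

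In GRCm39, the build of the deposited counts, Muc5ac (chr7:141342709-141372968) and Muc5b (chr7:141392807-141426821) are neighbours on the plus strand, 19.8 kb apart. Muc4 (chr16:32555015-32602754, plus strand) and Muc20 (chr16:32597793-32617831, minus strand) overlap by 4.96 kb. Whether the counting used strand is not given in the sources used here, so reads in that overlap may be shared between Muc4 and Muc20. Tff2 (chr17:31360023-31363262, minus strand) lies between Tff3 and Tff1, and Spdef (chr17:27933326-27947929, minus strand) is on the same chromosome. Muc1 is at chr3:89136354-89140688 (plus strand), Muc16 at chr9:18406745-18585826 (minus strand), Foxa3 at chr7:18747209-18757471 (minus strand) and Agr2 at chr12:36042904-36054086 (plus strand).

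After limits on depth and removal of doublets, 13222, 7201 and 24119 cells remained in libraries 1, 2 and 3, at a median of 10598, 14071 and 10477 UMIs (unique molecular identifiers, each 1 captured transcript end). Of these, 7701, 5210 and 19222 were epithelial, 32133 in all. The libraries shared 307 cell barcodes, 185 of them among the kept cells. Epithelial cells were put into classes by fixed minimum UMIs of marker genes, none of which is among the 10 genes, and a cell that passed several gates took the first in a set order, in which Ltf/Dmbt1/Lpo-high comes before Scgb3a2-high. The class names stand for those gates only, since these did not separate clean cell types: the Ltf/Dmbt1/Lpo-high class, set by products of serous gland cells, held Scgb1a1 at 5266 and Scgb3a2 at 2708 CPM (counts-per-million, a gene's UMIs scaled to the same total in every summed class), and the Scgb3a2-high and luminal classes held the basal keratin Krt5 at 1335 and 1137 CPM (airway basal cells 1461 CPM). Airway basal cells were those with Krt5 and Nkx2-1, and squamous basal cells those with Krt5 and Krt14 without Nkx2-1. Fibroblasts, a cell type not known for these mucins, are given beside them as a comparison for RNA from other cells. They were allowed at most 1 UMI of the epithelial genes Epcam and Cdh1 together, so their values may understate that background.

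The secreted mucin Muc5b was found mainly in the Ltf/Dmbt1/Lpo-high class. Its level there was 728, 822 and 838 CPM in libraries 1, 2 and 3, which is 796 ± 59.4 (SD, n = 3). Few cells carried most of it. Of 665, 283 and 696 cells in the class, 40, 28 and 28 with at least 20 Muc5b UMIs and fewer than 10 of Scgb1a1 and Scgb3a2 held 5771, 3844 and 7421 Muc5b UMIs. The whole class held 8385, 4936 and 9403 UMIs of Muc5b and Muc5ac together. In Scgb3a2-high cells Muc5b was at 9.80, 3.40 and 4.16 CPM, and in fibroblasts at 2.73, 0.468 and 2.26 CPM. No library of another class with at least 20 cells reached the lowest Ltf/Dmbt1/Lpo-high value. The cells left outside every named gate held 139 ± 140 CPM, a spread as large as the mean. Of these 2305, 1450 and 2597 cells, 17, 6 and 8 held at least 20 Muc5b UMIs, and in library 1 those 17 carried most of the Muc5b. Luminal cells (gated on Sult1b1 and Atp6v0a4) held 2.21, 30.6 and 56.6 CPM. The other epithelial classes shown in the plot of levels by class lay between 0.513 and 34.2 CPM, with overlapping libraries.

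**Figure D1:**
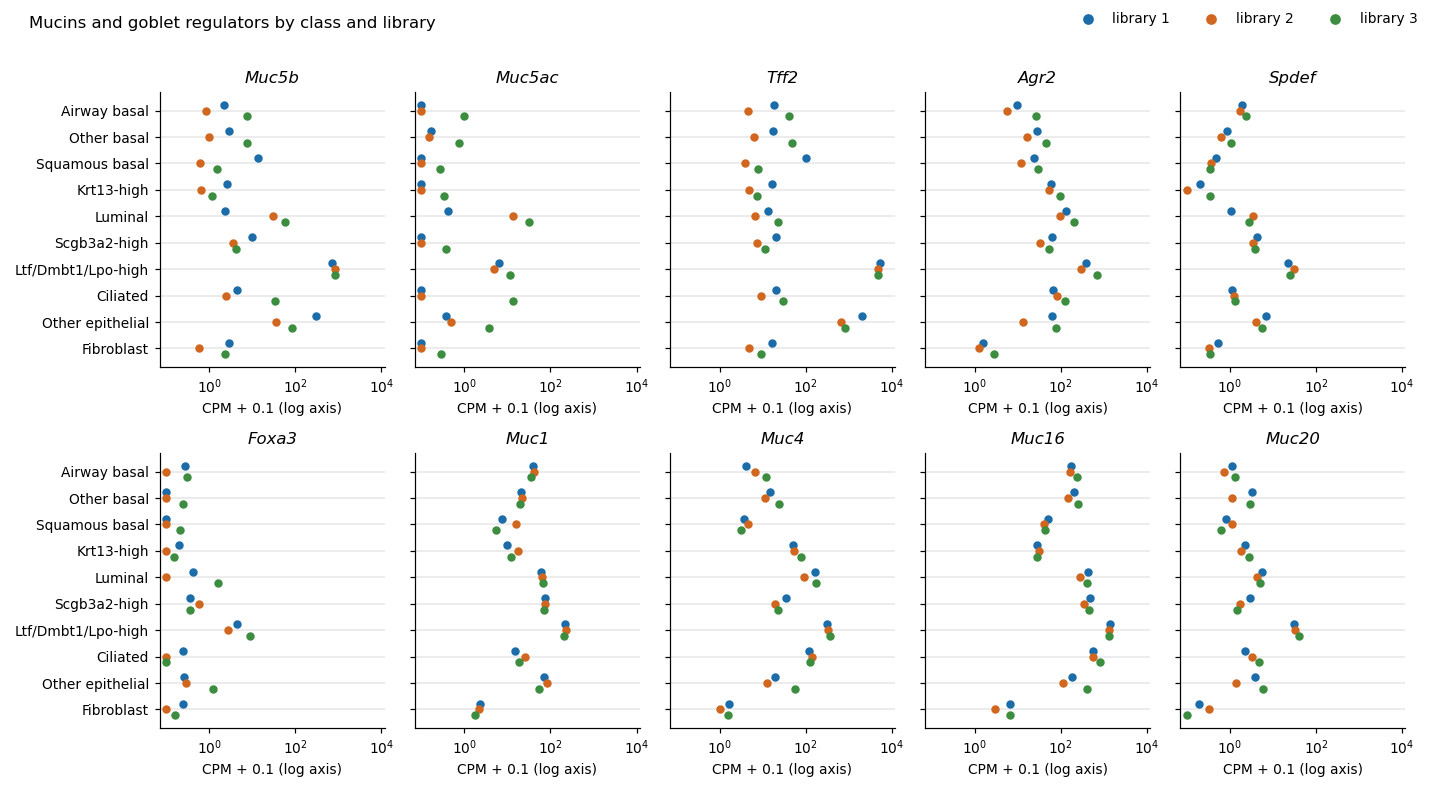
Level of each of the 10 genes in 9 epithelial classes and in fibroblasts, as CPM + 0.1 of the UMIs summed over a class, on a log axis; each point is 1 library. Muc5b and Tff2 stand far to the right in the Ltf/Dmbt1/Lpo-high class in all 3 libraries, while Muc16 is spread over most epithelial classes.

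Muc5b UMIs were seen in 42.1% (95% Wilson interval 38.4 to 45.9), 35.3% (29.997 to 41.1) and 29.9% (26.6 to 33.4) of Ltf/Dmbt1/Lpo-high cells. The shares were 7.22%, 3.57% and 4.13% in Scgb3a2-high cells and 3.10%, 0.284% and 2.23% in fibroblasts. Median depth was 14178.5 to 21972 UMIs in the first class, 16256 to 21917 in the second and 9843 to 11457 in fibroblasts. With each cell thinned to 5000 UMIs the shares were 28.2%, 1.48% and 0.80% as means of the 3 libraries, and the range over libraries of Scgb3a2-high cells (0.26% to 2.68%) overlapped that of fibroblasts (0% to 1.31%). Within each library Scgb3a2-high cells lay above fibroblasts in level and in both shares, and 13 Scgb3a2-high cells (6, 1 and 6 by library) held at least 5 Muc5b UMIs. Since fibroblasts were chosen for few UMIs of Epcam and Cdh1, this does not set the Muc5b of Scgb3a2-high cells above background, and how much of it was free RNA was not tested. These intervals cover counting error only.

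Tff2 was likewise highest, among the classes plotted, in the Ltf/Dmbt1/Lpo-high class. It stood at 5265, 4752 and 4887 CPM in the Ltf/Dmbt1/Lpo-high class. Most of this came from the 40, 28 and 28 cells named above, which held 55099, 26804 and 40956 Tff2 UMIs. In Scgb3a2-high cells the 20.2, 7.27 and 11.4 CPM of Tff2 lay near the 16.8, 4.68 and 9.17 CPM of fibroblasts, library by library. Tff2 did not follow Muc5b in every class: the ratio of their UMIs was 5.78 to 7.23 in the Ltf/Dmbt1/Lpo-high class, 2.06 to 2.73 in Scgb3a2-high cells and 4.06 to 10 in fibroblasts, and in luminal cells 6.14 in library 1 but 0.213 and 0.399 in libraries 2 and 3. In those libraries 1 and 8 luminal cells held 227 of 239 and 956 of 986 Muc5b UMIs of the class. Some ratios rest on few UMIs: Muc5b and Muc5ac together had 2 in fibroblasts of library 2 and 16 in luminal cells of library 1. The ungated epithelial cells had ratios of 6.82, 17.9 and 9.84 by library. They held 44 of the 152 epithelial cells with at least 100 Tff2 UMIs, against 106 in the Ltf/Dmbt1/Lpo-high class. In squamous basal cells library 1 had 100.5 CPM of Tff2 and 13.5 CPM of Muc5b against 3.85 and 7.72 CPM of Tff2 in the other libraries, and 1 squamous basal cell of library 1 held at least 100 Tff2 UMIs.

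Muc5ac was rare. The Ltf/Dmbt1/Lpo-high class held 6.13, 4.86 and 11.5 CPM and luminal cells 0.316, 13.2 and 32.2 CPM. The luminal value rested on few cells, since in library 2 all 103 UMIs came from 1 cell and in library 3 all 561 UMIs came from 8 cells. Cells with at least 3 Muc5ac UMIs numbered 20 of 32133, namely 2, 4 and 14 in libraries 1, 2 and 3, of which 8 were Ltf/Dmbt1/Lpo-high and 7 luminal. The others were 1 ciliated cell of library 3 and 4 ungated epithelial cells. In Scgb3a2-high cells no Muc5ac UMI was found among 679 cells of library 1 (which allows a share of cells with a UMI of up to 0.442%) or 392 of library 2 (up to 0.765%), limits that do not bound the share of cells expressing the gene, and 9 UMIs were found among 1935 cells of library 3.

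The membrane mucins were spread more widely. Of the classes with at least 20 cells in every library, Muc16 was highest in the Ltf/Dmbt1/Lpo-high class at 1342 ± 46.9 CPM, followed by ciliated cells at 647 ± 147, Scgb3a2-high cells at 427 ± 63.8 and luminal cells at 373 ± 75.9 CPM (SD, n = 3). The last pair overlapped. The ungated epithelial cells held 237 ± 154 CPM. Next came other basal cells at 203 ± 49.7 and airway basal cells at 193 ± 42.0 CPM, which also overlapped, then squamous basal cells at 44.5 ± 6.39 and Krt13-high cells at 29.0 ± 1.21 CPM. Fibroblasts held 5.30 ± 2.16 CPM, below every one of these classes.

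Muc4 was likewise highest in the Ltf/Dmbt1/Lpo-high class at 340 ± 27.8 CPM, but luminal (144 ± 44.7) and ciliated cells (128 ± 11.9) came next with overlapping libraries. Krt13-high cells, called by a keratin of suprabasal squamous cells, held the basal keratins Krt5 and Krt14 at 2878 and 1689 CPM (2391 and 2592 CPM in squamous basal cells), so Krt5 did not separate the classes. Their Muc4 level was 60.4 ± 14 CPM, against 25.3 ± 8.06 CPM in Scgb3a2-high cells. Muc1 stood at 217 ± 10.7 CPM in the Ltf/Dmbt1/Lpo-high class, 73.8 ± 1.56 in Scgb3a2-high, 63.2 ± 2.36 in luminal, 38.5 ± 2.56 in airway basal and 13.1 ± 4.04 CPM in Krt13-high cells. Muc20 reached 34.3 ± 5.70 CPM in the Ltf/Dmbt1/Lpo-high class and at most 5.93 CPM in any library of the other classes plotted.

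Set against each other, secreted mucins (Muc5ac and Muc5b) made up 29.3% ± 1.80 (SD, n = 3) of the UMIs of the 6 mucins in the Ltf/Dmbt1/Lpo-high class. In Scgb3a2-high cells they made up 1.07% ± 0.501, in airway basal cells 1.36% ± 1.26 and in Krt13-high cells 1.45% ± 1.15. Other basal and ciliated cells had 1.45% ± 1.12 and 1.86% ± 2.42, but squamous basal cells had 17.6%, 0.839% and 2.96% by library. The secreted mucins had 111, 4 and 45 UMIs in squamous basal cells and 29, 10 and 228 in ciliated cells. At least 20 Muc5b UMIs were held by 1 squamous basal cell of library 1 and 1 ciliated cell of library 3. How much of the class values these single cells carried was not tested. Luminal cells varied from 0.380% to 12.04% between libraries and the ungated epithelial cells from 14% to 51.5%. Among the membrane mucins, Muc16 gave 67.9% to 71.3% of the UMIs in the Ltf/Dmbt1/Lpo-high class and 78.9% to 82.5% in Scgb3a2-high cells, but 23.9% to 31.1% in Krt13-high cells, where Muc4 was the larger part. Counts of 3′ ends do not grow with transcript length, but genes can be captured unequally, so these shares compare classes and not the true amounts of the mucins.

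**Figure D2:**
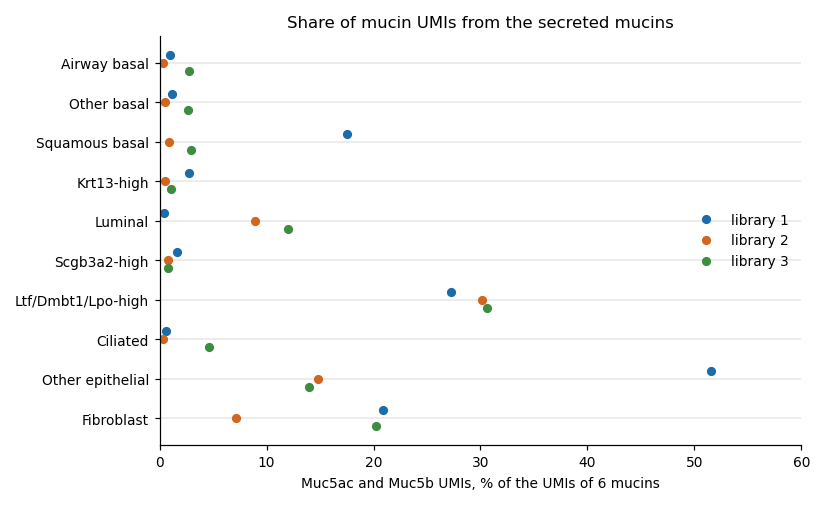
Share of Muc5ac and Muc5b among the UMIs of the 6 mucins, in percent, by class; each point is 1 library. The Ltf/Dmbt1/Lpo-high class lies between 27.3% and 30.6%, and the value of fibroblasts (7.14% to 20.9%) rests on 28 to 273 UMIs.

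Tested between classes, all 10 genes were higher in the Ltf/Dmbt1/Lpo-high class than in Scgb3a2-high cells (edgeR quasi-likelihood test on UMIs summed per library and class, Benjamini-Hochberg over 17701 genes). Of all genes tested, 26% passed in either direction, so a pass by itself was not rare in this comparison. The regulators rose with Muc5b. Spdef was at 21.9, 30.3 and 24.7 CPM against 4.19, 3.40 and 3.76, a log2 fold change of 3.01 ± 0.30 (SE, adjusted p = 5.61e-08). Foxa3 was at 4.38, 2.68 and 8.77 CPM against 0.251, 0.469 and 0.247, a log2 fold change of 4.37 ± 0.91 (adjusted p = 0.000836). For neither gene did the libraries of the classes overlap. Foxa3 and Muc5ac were too low in Scgb3a2-high cells to pass the filter on low counts there. They entered the test through other classes, so the filter favoured a rise for them. Agr2 stood at 395, 301 and 702 CPM against 62.6, 33.4 and 51.9, a log2 fold change of 3.50 ± 0.56 (adjusted p = 4.05e-05).

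The gel-forming mucins and Tff2 differed most: Muc5b by 7.38 ± 1.15, Tff2 by 8.84 ± 1.16 and Muc5ac by 5.85 ± 1.67 on the log2 scale, with adjusted p of 2.9e-05, 3.29e-06 and 0.0114. Muc5ac had no UMI in Scgb3a2-high cells of libraries 1 and 2, so the size of its difference is uncertain. The lower level of Tff2 was close to that of fibroblasts and that of Muc5b above it in each library, as given above. The higher levels of both genes came mostly from few cells of the Ltf/Dmbt1/Lpo-high class, also given above. Of the membrane mucins, Muc4 and Muc20 differed by 4.01 ± 0.42 and 4.46 ± 0.44 on the log2 scale (adjusted p = 1.38e-07 and 5.61e-08), and Muc1 and Muc16 by 1.82 ± 0.25 and 1.92 ± 0.28 (adjusted p = 4.71e-06 and 1.28e-05). Without library 1 the Foxa3 difference was 4.38 with an adjusted p of 0.0550, and without library 2 that of Muc5ac was 5.79 with an adjusted p of 0.0759, so these calls were lost with little change in size.

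Scgb3a2-high cells exceeded airway basal cells in the membrane mucins Muc16, Muc1 and Muc4 (3 of 10 genes, where 2.67% of all genes passed). Muc16 was at 474, 354 and 452 CPM against 174, 164 and 241, a log2 fold change of 1.21 ± 0.28 (adjusted p = 0.0136). Muc1 rose by 1.00 ± 0.24 (adjusted p = 0.0221) from 38.9, 40.9 and 35.8 CPM to 75.2, 74.1 and 72.1 CPM. Muc4 rose by 1.79 ± 0.41 (adjusted p = 0.0139) from 3.95, 6.39 and 11.8 CPM to 34.3, 19 and 22.4 CPM. None of the 3 genes had overlapping libraries. The membrane mucin Muc20, at 2.76, 1.64 and 1.33 CPM against 1.02, 0.646 and 1.24, did not pass (0.95 ± 0.45, adjusted p = 0.378). Muc5b, at 2.15, 0.718 and 7.36 CPM in airway basal cells, Tff2, at 17.9, 4.38 and 42.0 CPM, and Muc5ac did not pass. Agr2 (1.88 ± 0.54, adjusted p = 0.0650) and Spdef (1.04 ± 0.30, adjusted p = 0.0633) missed the threshold, but passed it with library as a block (adjusted p = 0.000169 and 0.0162), where 1733 genes were called instead of 472.

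These calls between airway classes were lost under some alternatives. Without library 1 the log2 differences of Muc1, Muc16 and Muc4 were 1.00, 1.06 and 1.24, with an adjusted p of 0.489, 0.524 and 0.661, and 73 genes were called in all. Without library 2 the adjusted p was 0.0678 for Muc16 and 0.116 for Muc4, with 129 genes called. With all gates halved it was 0.387, 0.239 and 0.111, and with cells thinned to 5000 UMIs Muc4 had 0.313. All of these values kept their direction.

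Krt13-high cells exceeded squamous basal cells in Muc4, Agr2 and Muc20 (3 of 10 genes, where 10.3% of all genes passed). The Krt13 gate set no limit on Nkx2-1. Krt13-high cells held it at 14.8 CPM, against 0 in squamous basal cells, which were gated to lack it. The part of cells with Nkx2-1 in these differences was not tested. Muc4 was at 50.3, 54.6 and 76.3 CPM against 3.52, 4.36 and 3.05, a log2 fold change of 4.22 ± 0.48 (adjusted p = 2.22e-06). Agr2 was at 58.4, 53.9 and 97.3 CPM against 24.3, 12.1 and 28.8, a log2 fold change of 1.78 ± 0.54 (adjusted p = 0.0364). In the same Krt13-high cells Muc5b stood at 1.38 ± 1.03 CPM, no higher than the 1.82 ± 1.19 CPM of fibroblasts. Muc20 rose by 1.81 ± 0.52 (adjusted p = 0.0237) from 0.728, 1.03 and 0.519 CPM to 2.13, 1.67 and 2.75 CPM. Muc20 overlaps Muc4 on the opposite strand, and whether its UMIs came in part from Muc4 was not tested. Muc16 was lower in every library (28.0, 30.4 and 28.6 against 51.7, 39.6 and 42.0 CPM) without passing the test (-0.52 ± 0.29, adjusted p = 0.315), and with all gates doubled the difference was 0.43. Muc1 did not pass either (0.61 ± 0.29, adjusted p = 0.216), but did with library as a block (adjusted p = 0.0329), where 3863 genes were called instead of 1823. Agr2 and Muc20 lost their calls without library 1 (adjusted p = 0.286 and 0.209, with 712 genes called) and without library 3 (0.0736 and 0.332), and with cells thinned to 5000 UMIs (0.125 and 0.108). Without library 2 all 3 calls held, with 959 genes called.

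Compared directly, Scgb3a2-high cells had more Muc16, Muc1 and Spdef and less Muc4 than Krt13-high cells (4 of 10 genes). Of all genes 37.1% passed, a share near that of the 10 genes, so the count is no result about them. Spdef was at 0.102, 0 and 0.241 CPM in Krt13-high cells, from 1, 0 and 5 UMIs, and the log2 difference was 4.41 ± 0.44 (adjusted p = 5.48e-08). With so few UMIs the size of the Spdef difference is uncertain, and its SE may understate this. The difference was 3.79 ± 0.31 for Muc16 and 2.44 ± 0.27 for Muc1 (adjusted p = 2.19e-09 and 1.96e-07). Muc4 was lower by 1.36 on the log2 scale (log2 difference -1.36 ± 0.39, adjusted p = 0.00849). Agr2 did not pass (-0.61 ± 0.52, adjusted p = 0.40). Muc5b and Foxa3 did not pass either (adjusted p = 0.294 and 0.230), so Spdef differed here where no Muc5b difference was established. These comparisons use the same Krt13-high and Scgb3a2-high sums as those above.

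**Figure D3:**
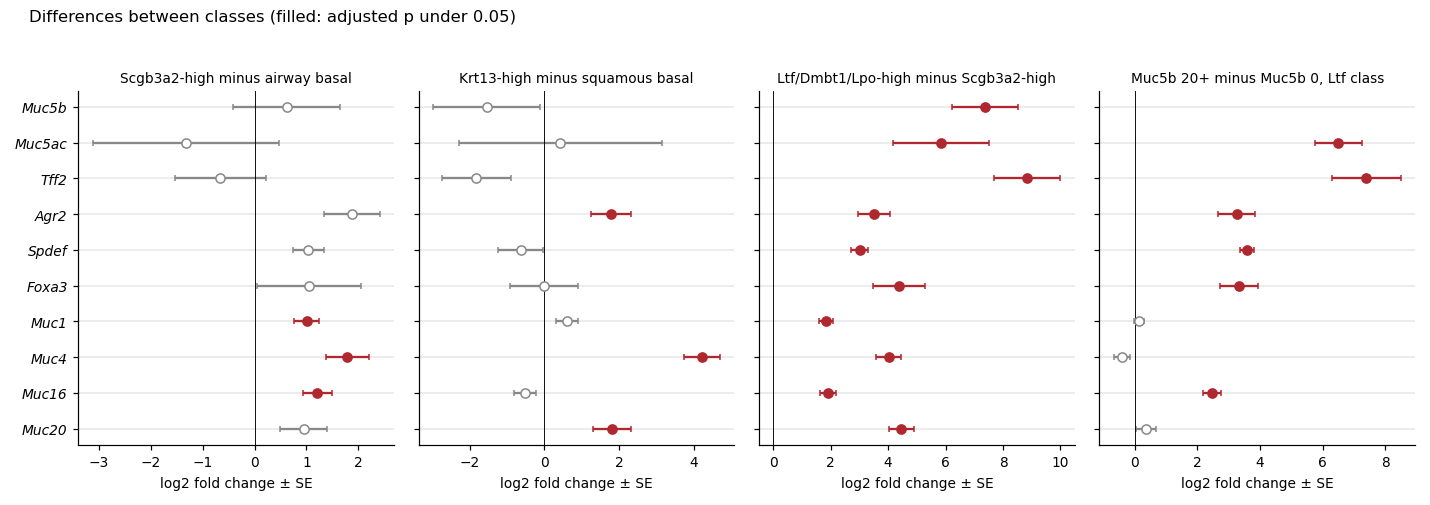
Log2 fold change with its SE (edgeR, n = 3 libraries) of the 10 genes in 4 comparisons; filled points passed an adjusted p of 0.05. All 10 points are filled for the Ltf/Dmbt1/Lpo-high class against Scgb3a2-high cells, and in the split by Muc5b on the right Spdef, Foxa3, Agr2, Tff2, Muc5ac and Muc16 are filled while Muc1, Muc4 and Muc20 lie near 0.

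Whether Spdef and Foxa3 follow Muc5b was examined first over classes and then from cell to cell. Over 29 sums of 10 epithelial classes, Pearson's r with Muc5b on log2(CPM + 1) was 0.87 for Spdef and 0.79 for Foxa3, as a description, since the sums share libraries and depth. Tff2 had 0.92, Muc20 0.82, Muc1 0.71, Muc5ac 0.70, Agr2 0.65, Muc16 0.64 and Muc4 0.58. Spearman's rho was 0.74 for Spdef and 0.64 for Foxa3. For the others it was 0.87 (Tff2), 0.70 (Muc5ac), 0.65 (Muc16), 0.64 (Muc20), 0.62 (Agr2), 0.58 (Muc1) and 0.57 (Muc4). By rank, Foxa3 was therefore no more like Muc5b than Muc16, Muc20 or Muc5ac were. Among 10147 genes with a mean of at least 10 CPM the pattern most like that of Muc5b was that of Tff1 (0.94), followed by Tff2, Wfdc12 (0.86), Gp2 (0.86) and Dmbt1 (0.81), the last of which is a gate gene. Within single libraries r was 0.84 to 0.93 for Spdef and 0.71 to 0.87 for Foxa3.

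At the level of cells, 210 epithelial cells held at least 20 Muc5b UMIs, 0.654% of 32133, in numbers of 96, 50 and 64 in libraries 1, 2 and 3. Of these, 165 were Ltf/Dmbt1/Lpo-high, 31 ungated epithelial cells and 9 luminal, 8 of them in library 3, and the other 5 were spread over 5 further classes. No Scgb3a2-high cell and no airway basal cell was among them. The Ltf/Dmbt1/Lpo-high class was therefore split by Muc5b into cells with 0 UMIs (385, 183 and 488 cells), 1 to 4 (119, 35 and 92), 5 to 19 (83, 24 and 70) and at least 20 (78, 41 and 46). The choice of this class was made after seeing where the Muc5b cells lay. Muc5b set the groups and was not tested.

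Spdef was at 9.59, 10.3 and 12.1 CPM in cells without Muc5b and at 72.8, 127 and 113 CPM in cells with at least 20 UMIs. Cells with 1 to 4 Muc5b UMIs held 25.9, 18.9 and 23.3 CPM and cells with 5 to 19 held 20.6, 25.7 and 35.0 CPM. Every library of the highest group lay above every library of the cells without Muc5b, and the log2 difference was 3.59 ± 0.23 (adjusted p = 2.19e-07, edgeR over 10508 genes). Of all genes 16.2% passed in either direction, against 6 of the 9 other genes described here. Of these, Foxa3 and Muc5ac were too low in the cells without Muc5b to pass the filter on low counts there. They entered the test through groups with Muc5b, so the filter favoured a rise for them. Spdef UMIs were seen in 12.7%, 17.5% and 13.7% of the cells without Muc5b and in 51.3%, 70.7% and 69.6% of the cells with at least 20. After thinning to 5000 UMIs these became 5.36%, 5.88% and 6.57% against 28.4%, 42.1% and 38.6%.

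Foxa3 was lower in level but moved the same way, from 2.18, 1.44 and 2.47 CPM to 11.4, 6.41 and 34.6 CPM. The groups did not overlap, and the log2 difference was 3.33 ± 0.62 (adjusted p = 0.00144). Its intermediate groups were not ordered in every library: library 1 had 5.83 CPM at 1 to 4 Muc5b UMIs and 5.68 at 5 to 19, and library 2 had its highest value, 7.01 CPM, at 5 to 19. In library 2 the highest group rested on 6 Foxa3 UMIs.

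Agr2 rose from 224, 190 and 295 CPM to 1109, 892 and 3380 CPM (log2 difference 3.26 ± 0.59, adjusted p = 0.00127), and library 3 was the highest throughout. Tff2 was at 34.3, 34.5 and 731 CPM in cells without Muc5b and 35210, 28726 and 42511 CPM in those with at least 20 UMIs, a log2 difference of 7.39 ± 1.11 (adjusted p = 0.000262). The value of library 3 in the lower group stands apart from the other 2. Muc5ac went from 1.02, 0 and 0.391 CPM to 32.9, 25.7 and 69.3 CPM (6.51 ± 0.76, adjusted p = 2.89e-05).

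The membrane mucins divided. Muc16 rose with Muc5b, from 1004, 826 and 806 CPM to 2896, 4001 and 4651 CPM (2.46 ± 0.29, adjusted p = 2.89e-05). Muc4 was at 385, 406 and 411 CPM without Muc5b and at 245, 195 and 277 CPM with at least 20 UMIs, but its log2 difference of -0.42 ± 0.26 did not pass (adjusted p = 0.323). Muc1 was at 214, 231 and 206 CPM against 186, 208 and 172, with a log2 difference of 0.12 ± 0.16 (adjusted p = 0.680). For Muc1 the CPM and the test differ in sign, since the test is on sums scaled by TMM and CPM is not, so no direction is given for it. Muc20 did not pass either (0.35 ± 0.31, adjusted p = 0.532). Over all epithelial cells Muc4 differed by 2.90.

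**Figure D4:**
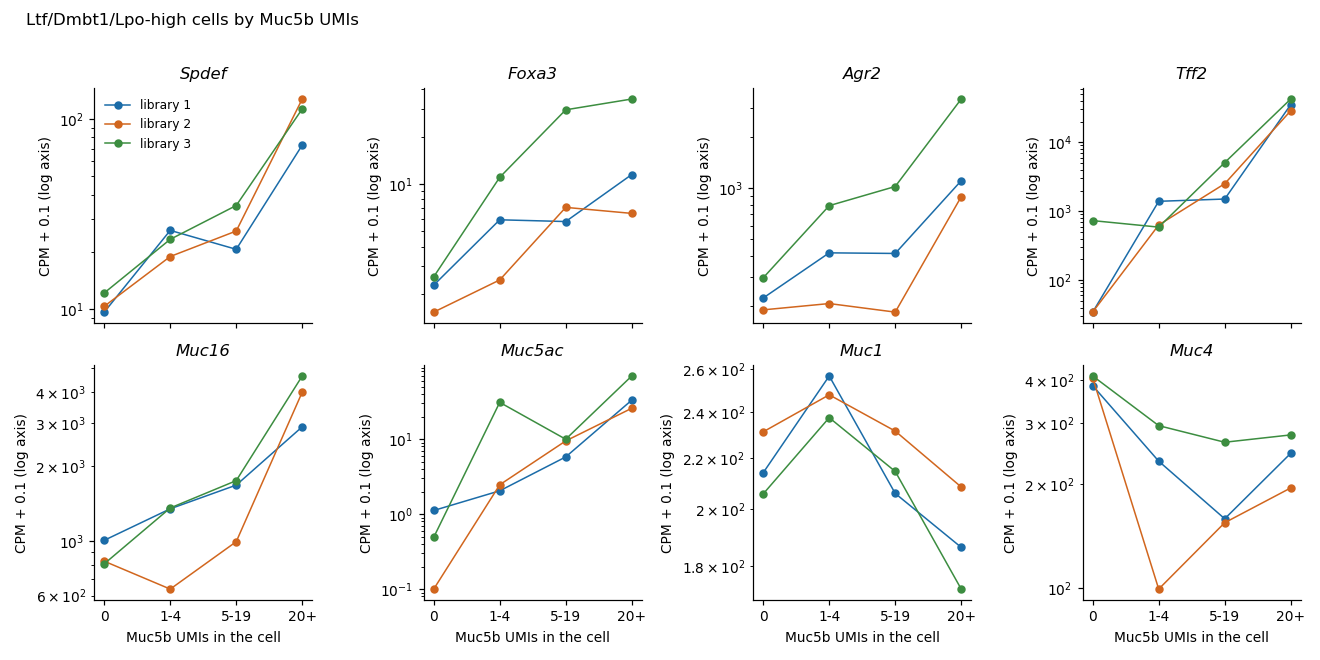
Level of 8 genes in Ltf/Dmbt1/Lpo-high cells grouped by their Muc5b UMIs, as CPM + 0.1 on log axes with a separate range for each gene; each line is 1 library. Spdef, Agr2, Tff2, Muc16 and Muc5ac end highest in the group with at least 20 UMIs in every library, Foxa3 in libraries 1 and 3, while Muc1 and Muc4, which did not pass the test, have lower CPM there than in the cells without Muc5b, although for Muc1 the TMM-scaled difference has the opposite sign.

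Other markers moved with the same split, and their part in it was not tested. Scgb1a1 and Scgb3a2 were higher in the cells with at least 20 Muc5b UMIs (log2 differences 4.49 ± 0.75 and 2.36 ± 0.40), as was the gate gene Dmbt1 (1.63 ± 0.43), while Krt5 was lower (-3.27 ± 0.78) and Ltf did not pass (0.49 ± 0.29, adjusted p = 0.296). The secretoglobin rise came from 38, 13 and 18 of these cells by library. The other 40, 28 and 28, the larger part, held fewer than 10 UMIs of Scgb1a1 and Scgb3a2 together. The median depth was 17857, 23098 and 14225 UMIs without Muc5b and 19795.5, 23021 and 22729.5 UMIs with at least 20. Among cells of 10000 to 20000 UMIs, Spdef was at 10.3, 17.8 and 10.0 CPM without Muc5b and at 85.8, 127 and 111 CPM in the 27, 9 and 10 cells with at least 20 Muc5b UMIs, given as a description, since only library 1 had enough cells for a sum. With cells thinned to 5000 UMIs, Foxa3 did not pass the filter on low counts.

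The secretoglobins divided the 210 Muc5b-rich cells further. Of these, 139 (58, 36 and 45 by library) had fewer than 10 UMIs of Scgb1a1 and Scgb3a2 together and 71 (38, 14 and 19) had at least 10, a division made after seeing the data and given without a test. In the cells with few secretoglobin UMIs, Muc5b reached 12071, 7418 and 10950 CPM, Tff2 95248, 55340 and 55268 CPM and Spdef 177, 219 and 173 CPM. In the others Muc5b was at 1630, 1965 and 2040 CPM, Tff2 at 559, 171 and 4195 CPM and Spdef at 23.9, 26.0 and 27.4 CPM. Both groups lay above the Ltf/Dmbt1/Lpo-high cells without Muc5b in Spdef. Muc1 went the other way, at 97.0, 162 and 185 CPM in the cells with few secretoglobin UMIs against 231, 273 and 269 CPM. Muc5ac was at 56.5, 200 and 838 CPM against 4.56, 0 and 14.7 CPM, but luminal cells carried most of it in libraries 2 and 3, where 1 Muc5b-rich luminal cell held 103 and the 8 of library 3 together held 560 Muc5ac UMIs. These luminal cells had 3922 and 3000 CPM of Muc5ac with 267 and 1061 CPM of Tff2. Within the Ltf/Dmbt1/Lpo-high class alone, Muc5ac was at 68.5, 43.3 and 114 CPM in the cells with few secretoglobin UMIs against 4.56, 0 and 13.4 CPM. There Muc5b, Tff2 and Spdef were also higher and Muc1 lower in the cells with few, in all 3 libraries. The median depths were 15158, 17725 and 18412 UMIs against 23280, 30829.5 and 23461.

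**Figure D5:**
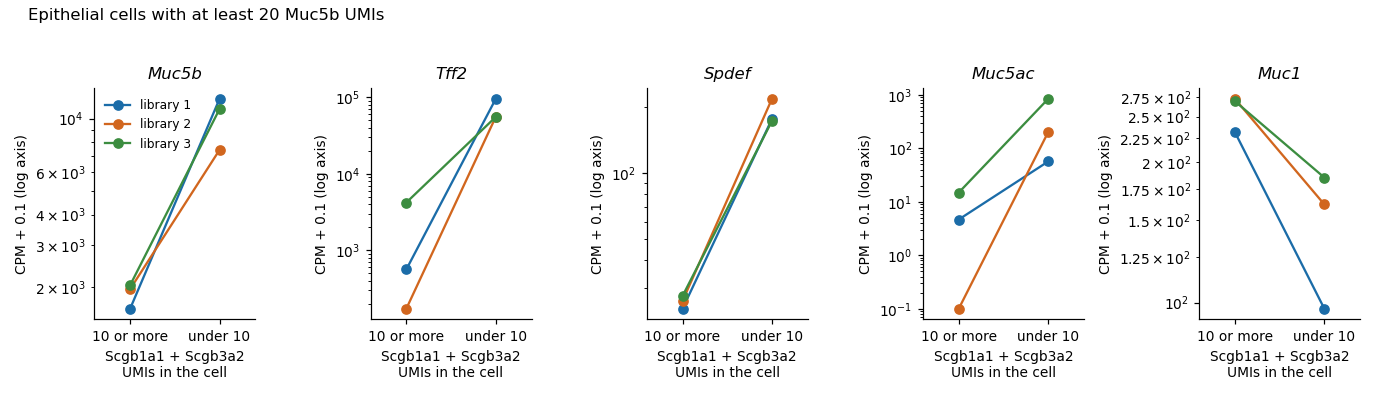
Level of 5 genes in epithelial cells with at least 20 Muc5b UMIs, divided at 10 UMIs of Scgb1a1 plus Scgb3a2, as CPM + 0.1 on log axes; each line is 1 library. Muc5b, Tff2, Spdef and Muc5ac are higher in the cells with fewer than 10 in all 3 libraries and Muc1 is lower; the Muc5ac points of libraries 2 and 3 there rest mainly on 1 and 8 luminal cells.

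Read from the side of the regulator, cells with a Spdef UMI were more often Muc5b-rich. In the Ltf/Dmbt1/Lpo-high class, 29.6%, 37.7% and 22.1% of the cells with Spdef held at least 20 Muc5b UMIs, against 7.17%, 5.83% and 2.54% of the cells without. With cells thinned to 5000 UMIs, any Muc5b UMI was seen in 59.3%, 62.5% and 43.4% of the cells with Spdef against 31.8%, 22.1% and 21.0% of those without. For Foxa3 these were 26.8%, 35.7% and 27.6% of 41, 14 and 58 cells against 10.7%, 13.4% and 4.70%, and after thinning 10, 4 and 16 cells with Foxa3 were left, too few to compare. Most Muc5b-rich cells did not show Foxa3, which was seen in 14.1%, 12.2% and 34.8% of them. A cell without a UMI may still express the gene at this depth. In fibroblasts Spdef was at 0.31 ± 0.11 and Foxa3 at 0.07 ± 0.07 CPM.

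The promoters of the genes that moved with Muc5b are shown for those held in the RefSeq table of promoter sequences, which covers 7 of the 10 genes. Each stretch is the 250 bases before the RefSeq start (GRCm38.p6), 5′ to 3′ on the gene's strand, and was matched without mismatch to 1 place in GRCm39. Spdef lies at chr17:27947926-27948175 on the minus strand, Foxa3 at chr7:18757465-18757714 on the minus strand, Agr2 at chr12:36042674-36042923 on the plus strand and Muc16 at chr9:18585900-18586149 on the minus strand. Capitals mark a forkhead motif, found in Spdef alone of these 4.
Spdef: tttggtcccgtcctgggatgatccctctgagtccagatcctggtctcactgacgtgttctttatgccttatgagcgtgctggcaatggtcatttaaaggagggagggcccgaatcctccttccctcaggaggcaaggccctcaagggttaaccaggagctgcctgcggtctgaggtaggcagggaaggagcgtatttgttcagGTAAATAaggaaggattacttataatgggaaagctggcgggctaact
Foxa3: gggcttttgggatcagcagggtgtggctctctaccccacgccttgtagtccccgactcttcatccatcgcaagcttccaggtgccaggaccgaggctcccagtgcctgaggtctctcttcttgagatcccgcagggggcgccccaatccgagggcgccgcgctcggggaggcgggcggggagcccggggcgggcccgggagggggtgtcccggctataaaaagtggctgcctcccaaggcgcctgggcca
Agr2: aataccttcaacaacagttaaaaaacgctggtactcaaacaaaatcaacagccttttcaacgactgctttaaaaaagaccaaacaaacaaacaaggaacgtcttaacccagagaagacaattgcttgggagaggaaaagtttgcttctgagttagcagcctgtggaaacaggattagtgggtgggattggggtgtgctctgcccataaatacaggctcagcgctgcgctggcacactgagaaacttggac
Muc16: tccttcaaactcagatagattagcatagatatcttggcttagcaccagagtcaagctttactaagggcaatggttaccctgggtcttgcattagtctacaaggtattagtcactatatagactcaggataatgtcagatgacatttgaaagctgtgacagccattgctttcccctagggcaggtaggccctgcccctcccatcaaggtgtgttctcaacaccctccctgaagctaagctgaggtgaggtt
The motifs searched, on both strands, were the forkhead motifs TGTTTAC and TATTTAC and the ETS motifs CCGGAA and CCGGAT, which share their first bases. The Spdef match, GTAAATA, is TATTTAC on the other strand, 47 bases before the start. Of 32536 mouse promoters of this length, 2.72% held TATTTAC, 3.17% TGTTTAC, 12.1% CCGGAA and 4.98% CCGGAT. Among the 7 promoters of the genes described here, Spdef had TATTTAC and Muc20 had TGTTTAC, and neither ETS motif was found.

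The wider mucus machinery was followed through 6 gene lists in the same split by Muc5b, each described by its counts, to be read against the 16.2% of all genes called in either direction. The filter on low counts keeps a gene that is high in 1 group alone. Some genes nearly absent without Muc5b, such as Galnt6 and Fut2, entered the test only through groups with Muc5b, so the counts lean towards higher. Of the goblet and granule proteins, 8 of 11 tested were higher in cells with at least 20 Muc5b UMIs and none lower, with a median log2 difference of 1.87 against -0.01 for all genes. They ranged from Tff1 (6.39 ± 1.08), a trefoil peptide next to Tff2, and Gp2 (4.51 ± 0.55), a glycoprotein of secretory granules, to Atp2c2 (1.74 ± 0.24), a Golgi calcium pump, and Bpifa1 (1.15 ± 0.37), a secreted antimicrobial protein. Of the enzymes of mucin O-glycosylation, 11 of 22 were higher and none lower (median 0.72). Galnt6, which starts O-glycan chains, was at 2.91, 0.957 and 3.00 CPM without Muc5b and 108, 161 and 257 CPM with at least 20 UMIs (6.45 ± 0.61). Fut2, which adds fucose to the chains, differed by 3.72 ± 0.40, Galnt1 by 0.90 ± 0.18 and C1galt1c1, the chaperone of the core enzyme, by 0.78 ± 0.22.

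Of the secretory stress and folding genes, 9 of 15 were higher and none lower (median 1.08). Creb3l4 (3.73 ± 0.43) and Creb3l1 (3.31 ± 0.23) are membrane-bound transcription factors of the endoplasmic reticulum and Golgi, and Creb3l1 rose from 40.7, 32.8 and 50.8 CPM to 293, 327 and 368 CPM. Sec61b of the translocon and Creb3l2 differed least among those called, by 0.75 ± 0.23 and 0.71 ± 0.22. Of the granule exocytosis genes, 3 of 15 were higher and 2 lower (median 0.05): Sytl2 (1.18 ± 0.18), Stxbp2 (0.68 ± 0.21) and Syt7 were higher, Syt7 being named after its value was seen, and the granule-release substrates Marcks (-1.07 ± 0.31) and Marcksl1 (-1.49 ± 0.25) were lower. Syt7 passed the filter on low counts only through the group with the most Muc5b, so its direction was fixed by the filter. Of the airway secretory transcription factors, 4 of 14 were higher and 1 lower (median 0.22). Xbp1, a factor of the unfolded protein response that is also in the list above, differed by 1.25 ± 0.21, while Elf3 was lower (-1.03 ± 0.24). Foxa2 and Gata6 were also higher and are named after their values were seen.

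Of the other mucins, 4 of 10 were tested, 2 were higher and 1 lower. Muc19, 1 of the higher ones, passed the filter on low counts only through the group with at least 20 Muc5b UMIs, so its direction was fixed by the filter. Muc19, a further gel-forming mucin, was not seen among the 6884296, 4179386 and 7677673 UMIs of the cells without Muc5b and was at 110, 102 and 171 CPM in cells with at least 20 UMIs, at least 783-fold higher against a floor of 3 counts over the group. Cd164, a small sialomucin, differed by 1.20 ± 0.16. Muc21, a membrane mucin, fell by 3.31 on the log2 scale (-3.31 ± 0.68) from 34.4, 51.9 and 34.1 CPM to 1.27, 0 and 8.91 CPM.

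Between the Ltf/Dmbt1/Lpo-high and Scgb3a2-high classes the same lists counted 11 of 13 goblet and granule proteins higher and none lower (median 3.56), 18 of 27 O-glycosylation genes higher and 1, Galnt18, lower (median 1.21), and 9 of 16 secretory stress genes higher and none lower (median 0.63). The median of all genes was -0.01 and 26% of them were called, a share near which the exocytosis count lies. Some genes nearly absent in Scgb3a2-high cells, such as Tff1 and Galnt6, entered the test only through other classes. The list counts of this comparison therefore also lean towards higher. Exocytosis genes went both ways, with 3 higher (Syt7, Unc13b and Snap23) and 3 lower (Marcks, Marcksl1 and Unc13d) of 17, of which Snap23 and Unc13d were named after their values were seen. Of the transcription factors, 6 of 14 were higher, among them Sox9 (4.40 ± 0.55) and Foxa2 (5.15 ± 0.62), the latter at 4.56, 5.03 and 6.33 CPM against 0.335, 0.117 and 0.123, and Grhl2 and the gate gene Nkx2-1 were lower. Of the other mucins 4 of 6 were higher, Cd164 (0.77 ± 0.14) and, named after their values were seen, Muc13, Muc19 and Muc21.

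The cells were sorted on tdTomato switched on by Cre from the Lrig1 locus, so the genes were also compared between cells with and without a Lrig1 UMI. Over the Scgb3a2-high, airway basal, squamous basal and Krt13-high classes, 1 of 8 genes tested passed, where 2.78% of all genes did. Muc16 was higher in Lrig1-positive cells by 0.62 ± 0.10 on the log2 scale (adjusted p = 0.00303). In Krt13-high cells it was at 40.2, 33.2 and 33.9 CPM against 13.8, 21.4 and 18.9, and in squamous basal cells at 67.6, 45.3 and 48.6 CPM against 23.8, 26.1 and 29.9, with no overlap in either class. In airway basal cells it was at 210, 180 and 259 CPM against 113, 129 and 214, higher in each library. In Scgb3a2-high cells the 486, 338 and 472 CPM of the positive cells overlapped the 448, 392 and 414 CPM of the negative ones.

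Lrig1-positive cells were the deeper ones in every class, for example 13630 against 6947 UMIs at the median for airway basal cells of library 3. With Lrig1 status set after thinning each cell to 5000 UMIs, the Muc16 difference was 0.28 (adjusted p = 0.364), without library 1 it was 0.44 (adjusted p = 0.194, with 18 genes called in all), with all gates doubled 0.29 (adjusted p = 0.478), and with all gates halved 0.53 (adjusted p = 0.0551). Muc4 missed the threshold (0.76 ± 0.25, adjusted p = 0.102), but passed with library as a block (adjusted p = 0.0351, with 2203 genes called instead of 385), and Muc5b did not pass (-0.32 ± 0.56, adjusted p = 0.820).

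In the Ltf/Dmbt1/Lpo-high class none of the 10 genes passed between Lrig1-positive and Lrig1-negative cells, and 0% of 12189 genes did by edgeR. At an unadjusted p of 0.05 there were 1074 genes, and DESeq2 called 79. Muc5b was at 627, 600 and 920 CPM in the positive cells and 881, 1184 and 725 CPM in the negative ones, so the libraries went both ways (-0.61 ± 0.25, adjusted p = 0.551). Muc4 was at 381, 395 and 421 CPM against 221, 232 and 301 CPM, higher in each library (0.45 ± 0.13, adjusted p = 0.418), and passed with library as a block (adjusted p = 0.00757), where 605 genes were called. Spdef (-0.48 ± 0.24) and Tff2 (-0.64 ± 0.30) did not pass in either fit. Median depth was 19364 to 27251.5 UMIs in the positive and 9205 to 15236 in the negative cells.

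Whether the difference between Krt13-high and squamous basal cells was unlike that between Scgb3a2-high and airway basal cells was tested as a difference of differences, a comparison added after seeing the data. The Muc4 difference was the larger one between Krt13-high and squamous basal cells. Muc16 was higher in Scgb3a2-high than in airway basal cells and, without passing the test, lower in Krt13-high than in squamous basal cells. These 2 of 10 genes passed, where 1.69% of all genes did. The difference was 2.42 ± 0.62 for Muc4 and -1.73 ± 0.40 for Muc16 on the log2 scale (adjusted p = 0.0435 and 0.0246), and the calls were lost in several fits: without library 1 the adjusted p was 0.210 and 0.621, without library 2 0.177 and 0.0809, and without library 3 Muc4 had 0.365 while Muc16 held at 0.0204. In these fits 36, 46 and 108 genes were called, against 299 with all libraries and 1299 with library as a block.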

How the data were processed

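Droplet 3′ single-cell RNA-seq was made from 3 pools of sorted mouse larynx cells. The authors deposited UMI counts per gene and cell, made with Cell Ranger 8.0.1 on mm39 per the labels. Barcodes were kept at 500 to 8000 detected genes, 1000 to 40000 UMIs and a mitochondrial share no higher than 8%, and per library 0.4% of the kept cells for each 1000 deposited barcodes, those most like simulated doublets, were removed (4851 cells). Classes were set by fixed UMI gates, in this order, each cell taking the first it passed: ciliated (10 UMIs over Foxj1, Ccdc39, Dnah5, Dnah9, Cfap43, Ccdc153 and Tmem212), neuroendocrine, tuft, Dcpp-high, Ltf/Dmbt1/Lpo-high (20 UMIs in sum), Scgb1a1-high (50), Scgb3a2-high (10), Krt13-high (20), luminal (Sult1b1 and Atp6v0a4, 3), airway basal (Krt5 5 and Nkx2-1 1), squamous basal (Krt5 5, Krt14 20, no Nkx2-1), other basal (Krt5 5) and other epithelial. Non-epithelial cells were allowed at most 1 UMI of Epcam and Cdh1 together. Cells over this limit that passed an epithelial and a non-epithelial gate or cells that passed 2 non-epithelial gates (2697 in all), and those left in no class (3314), were left out.

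UMIs were summed per library and class with at least 20 cells and tested with edgeR 4.0.16 in R 4.3.3 (quasi-likelihood test, TMM, filterByExpr), at a Benjamini-Hochberg adjusted p of 0.05 over all genes, with classes as groups. The class comparisons shared 1 fit of 29 sums from 10 epithelial classes. The SE given with a log2 fold change was its absolute size divided by the square root of the F statistic of the test. DESeq2 1.42.0, other scaling, no filter, library as a block, each library left out, doublets kept, cells thinned to 5000 UMIs and gates doubled or halved were alternatives. The library numbers pair the sums by origin, since those of a library share 1 pool of animals. Deviations of same-numbered sums from their group means correlated at a median of 0.115 to 0.315 over the classes, at the lowest 0.0381 and at the highest 0.790. The medians were 0.149 to 0.324 in the split by Muc5b, 0.192 to 0.428 in the Lrig1 fit and 0.274 to 0.561 in the Lrig1 fit of the Ltf/Dmbt1/Lpo-high class. The scripts were tested on simulated data. Tables and figures were made in Python 3.11.15 with numpy 2.4.6, scipy 1.17.1, pandas 2.3.3, scikit-learn 1.9.0 and matplotlib 3.10.9.

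The genes and lists were chosen with earlier results of these data known. Each of the 10 genes could be named in every comparison, and from each list the 2 genes with the largest and the 2 with the smallest log2 fold change among those called with a mean of at least 10 CPM over all sums of the fit, which can include other classes. The comparison of Muc5b-rich cells had been planned in Scgb1a1-high and Scgb3a2-high cells, of which 1 held at least 20 UMIs, and was moved to the Ltf/Dmbt1/Lpo-high class after seeing this. Scgb1a1-high cells (23, 14 and 16) reached 20 in 1 library and were not tested. The result of 1 gene of the lists is not reported here. tdTomato and Cre are not among the features, so the sort was not checked in the counts. The p-values of the class comparisons rest on the spread between libraries within classes, pooled over 10 classes (29 sums, 19 residual degrees of freedom). All sums came from the same 3 pools. The main fits had no term for library and so treated sums from the same pool as independent. Only the fits with library as a block took the shared pool into account.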

Additional observations from a re-analysis of the deposited data

Results flagged for a closer look

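The difference between Krt13-high and squamous basal cells was unlike that between Scgb3a2-high and airway basal cells, here called the squamous and the airway step, for 2 of the 10 genes, by a test of the difference itself (edgeR quasi-likelihood test, n = 3 libraries). Of all genes tested 1.69% passed, and the comparison was added after seeing the data. For Muc16 the squamous step minus the airway step was -1.73 on the log2 scale (adjusted p = 0.0246), with a step of -0.52 from squamous basal to Krt13-high cells and of 1.21 from airway basal to Scgb3a2-high cells. For Muc4 it was 2.42 (adjusted p = 0.0435), with steps of 4.22 and 1.79. The direction of the difference held in all 11 alternatives for both genes. Muc16 kept its call in 5 of them and Muc4 in 6. With all gates doubled the Muc16 difference was -0.82 (adjusted p = 0.565).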

How the results depend on the processing

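Called pairs of gene and comparison in the split by Muc5b kept their call in 70 of 70 tests under alternatives with at least 2 libraries in each arm, those of the Ltf/Dmbt1/Lpo-high against Scgb3a2-high comparison in 107 of 109, of Scgb3a2-high against Krt13-high in 44 of 44, of Scgb3a2-high against airway basal in 24 of 33, of Krt13-high against squamous basal in 27 of 33, of the Lrig1 comparison in 8 of 12 and of the difference of steps in 11 of 22. An alternative in which a gene was not tested is not counted, such as Foxa3 in the split by Muc5b with thinned cells. In that split and between the Ltf/Dmbt1/Lpo-high and Scgb3a2-high classes, the filter on low counts favoured a rise of Foxa3 and Muc5ac. Their kept calls there are therefore no further support. The cause of the changes below was not tested.

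With library as a block, which the shared animals warrant, the numbers of genes called were 1733 for Scgb3a2-high against airway basal, 3863 for Krt13-high against squamous basal, 1299 for the difference of steps, 2203 for Lrig1 and 605 for Lrig1 in the Ltf/Dmbt1/Lpo-high class. The block changed no call of the 10 genes other than those given above. DESeq2 called 788, 615, 692 and 79 genes for Scgb3a2-high against airway basal (the airway step), the difference of steps, Lrig1 and Lrig1 in the Ltf/Dmbt1/Lpo-high class. With 1 library left out the counts were 73 to 608 (airway step), 712 to 1423 (squamous step), 3430 to 5450 (Scgb3a2-high against Krt13-high), 2495 to 3930 (Ltf/Dmbt1/Lpo-high against Scgb3a2-high), 36 to 108 (difference of steps), 736 to 1243 (split by Muc5b), 18 to 121 (Lrig1) and 0 to 4 (Lrig1 in the Ltf/Dmbt1/Lpo-high class). With cells thinned to 5000 UMIs, which leaves out shallower cells and tests fewer genes, they were 253, 1042, 167, 859, 115 and 5 for the airway step, the squamous step, the difference of steps, the split by Muc5b, Lrig1 and Lrig1 in the Ltf/Dmbt1/Lpo-high class. With doublets kept they were 293 for the airway step and 129 for the difference of steps, with gates doubled 824, 185 and, for Lrig1 in the Ltf/Dmbt1/Lpo-high class, 2, and with gates halved 130 and 186. Without the filter on low counts the last comparison called 127 genes, and Lrig1 status set after thinning left 25 for Lrig1. The split by Muc5b called 192 genes at 10000 to 20000 UMIs, where the arm with at least 20 Muc5b UMIs was 1 library assumed to vary like the others, and 4445 over all epithelial cells.

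Some differences changed sign. Of the 34 pairs of gene and comparison given without a fold change, 18 did so in some alternative and 0 passed the threshold in any. Among the differences given, these were Muc16 between Krt13-high and squamous basal cells (0.43 with gates doubled) and, in the split by Muc5b, Muc1 (-0.18 thinned, -0.11 with gates doubled, -0.00093 at 10000 to 20000 UMIs), Muc4 (0.10 at 10000 to 20000 UMIs, 2.90 over all epithelial cells), Muc20 (-0.039 to 0.51 with 1 library left out, -0.90 at 10000 to 20000 UMIs) and Elf3 (0.014 over all epithelial cells). In the Ltf/Dmbt1/Lpo-high class the Muc5b level was 718, 936 and 726 CPM with doublets kept, thinned and with gates halved, and that of Muc16 was 1272, 1417 and 1199 CPM with doublets kept and with gates doubled and halved. The rank correlation with Muc5b was 0.74 for Spdef and 0.64 for Foxa3.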
